A study of Mus musculus with 12 samples.

Results

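The far end of mouse chromosome 4 was examined for binding of Nfib in a pair of small cell lung cancer lines, KP1 and KP22. Every interval of their deposited Nfib peak lists on chromosome 4 with a start at 130 Mb or beyond (mm9) was taken, which gave 659 of 24905 KP1 peaks and 378 of 10120 KP22 peaks, or 1037 of 35025 in all. The segment was chosen from the peak lists themselves, because of the number of peaks it holds and the balance between the lines, so its counts and the ratios of those counts are given as a description and support nothing. Nearest to its edge, the last KP1 peak left out was chr4:129976338-129976762 (425 bases) and the first one taken was chr4:130046282-130046444 (163 bases). In KP22 the corresponding peaks were chr4:129819019-129819267 (249 bases) and chr4:130145856-130146258 (403 bases).

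Nfib (nuclear factor I B) is a member of the nuclear factor I family of transcription factors, which bind DNA as dimers, most strongly at a palindrome of TTGGC and its reverse complement set apart by a short spacer. Its gene lies on chromosome 4 too, and gains of Nfib are known from mouse models of small cell lung cancer, a neuroendocrine tumour driven by loss of Rb1 and Trp53. Chromatin immunoprecipitation followed by sequencing maps such a factor by enriching the DNA bound to it, and a peak is an interval where the pulldown exceeds what is expected from background.

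The study pulled down Nfib in 3 lines. For 16T, KP1 and KP22 alike, 2 input libraries and 2 pulldowns were sequenced, or 12 libraries in all. All are tumour-derived mouse lines of genotype Trp53-/-;Rb1-/-, grown as floating spheres, and 16T and KP1 are labelled Nfib high and KP22 Nfib low. The file labelled as the 16T list held 0 intervals, so only KP1 and KP22 are described, each through 1 list. With 1 list per line there is no replicate check and no test between the lines, and the level of Nfib and the identity of the line cannot be told apart. The read depth of the libraries is unknown here. Intervals in brackets are exact 95% intervals, treat peaks as independent although neighbours share libraries and surroundings, and cover counting error only.

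Both lines had many peaks at this end of the chromosome, and KP22 had more of its list there than KP1. The segment held 2.65% of the KP1 list (2.45 to 2.85) and 3.74% of the KP22 list (3.37 to 4.12). The share of KP1 divided by that of KP22 was 0.708 (0.623 to 0.806). On chromosome 4 before 130 Mb, where 1488 KP1 and 481 KP22 peaks lay, the same ratio was 1.26 (1.13 to 1.40), and on the other chromosomes it was 0.999 (0.975 to 1.02). In plain counts, KP1 had 1.74 peaks for each KP22 peak on the distal segment, 3.09 on the rest of chromosome 4 and 2.46 on the other chromosomes.

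In steps of 1 Mb, named below by their distance from the start of the segment at 130 Mb, the peaks fell into a crowded first part and a less crowded second part. Over 26 steps the KP1 count ran from 0 to 59 with a median of 23, and the KP22 count from 0 to 38 with a median of 15. For reference, a 1 Mb window with peaks held a median of 8 peaks in the whole KP1 list and 4 in the whole KP22 list. Some steps of the second part were also above these medians, such as 18 to 19 Mb with 18 KP1 and 23 KP22 peaks. In the first 4 steps, KP1 had 154 peaks and KP22 had 64. There the lines were balanced like the genome at large, with a ratio of shares of 0.978 (0.726 to 1.33).

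**Figure D1:**
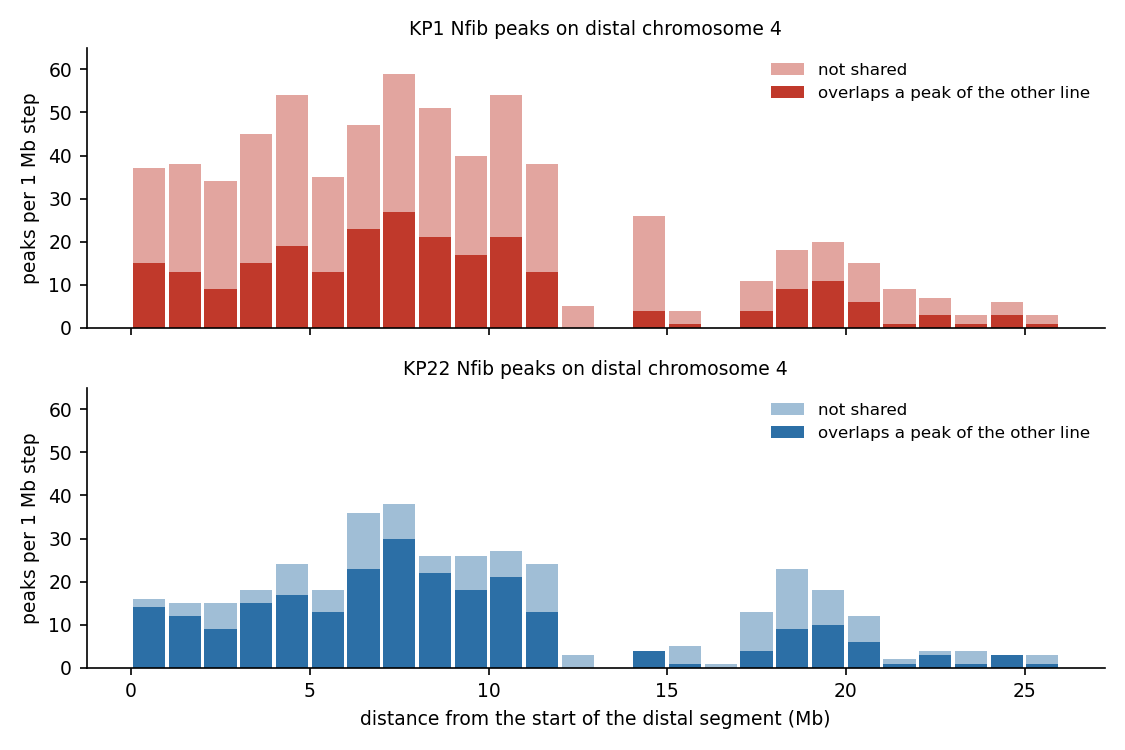
Number of Nfib peaks in each 1 Mb step of distal chromosome 4 (horizontal axis, distance in Mb from the start of the segment at 130 Mb), with KP1 above and KP22 below. Dark bars are peaks that overlap a peak of the other line and pale bars the rest. KP1 reaches 59 and KP22 38 in the same step, both lines have 0 peaks in the step from 13 to 14 Mb, and the KP22 bars are higher than those of KP1 in the steps from 15 to 19 Mb.

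The stretch from 4 to 12 Mb into the segment (mm9 bases 134000001 to 142000000) was dense in both lines. KP1 had 378 peaks there, between 35 and 59 in each of its 8 steps, and KP22 had 219, between 18 and 38 per step. The fullest step in both lines ran from 7 to 8 Mb, with 59 KP1 and 38 KP22 peaks. Next in KP22 came 6 to 7 Mb with 36 peaks, and next in KP1 came 4 to 5 Mb and 10 to 11 Mb with 54 each. Outside chromosome 4, no window of 8 Mb, moved along in steps of 1 Mb, held as many peaks as this stretch in either list. The highest count there was 287 in KP1, with a median of 65, and 133 in KP22, with a median of 27. The ratio of shares was 0.701 (0.592 to 0.832) over the stretch. Among its steps it was lowest at 6 to 7 Mb, at 0.531 (0.336 to 0.843), with 47 KP1 and 36 KP22 peaks, and highest at 4 to 5 Mb, at 0.914 (0.556 to 1.55), with 54 and 24.

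The dense stretch ended abruptly in both lines. From 11 to 12 Mb there were 38 KP1 and 24 KP22 peaks, from 12 to 13 Mb there were 5 and 3, and from 13 to 14 Mb there were 0 and 0. The longest interval without peaks on the segment lay here in both lists. It ran from 142752503 to 144313060 in KP1 (1.56 Mb) and from 142749709 to 144339175 in KP22 (1.59 Mb). By comparison, the median gap between neighbouring peaks of the segment was 13.2 kb in KP1 and 32.3 kb in KP22. Past the gap, KP1 had 26 peaks and KP22 had 4 in the step from 14 to 15 Mb, all 4 of which overlapped a KP1 peak, so the ratio of shares was 2.64 there, with a wide interval (0.916 to 10.4).

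The balance was the other way from 15 to 20 Mb into the segment (bases 145000001 to 150000000), where KP22 had 60 peaks and KP1 53, although the whole KP22 list is the shorter one. The ratio of shares was 0.359 (0.243 to 0.528). Most of these peaks lay in the last 3 steps. From 17 to 18 Mb there were 11 KP1 and 13 KP22 peaks, from 18 to 19 Mb 18 and 23, and from 19 to 20 Mb 20 and 18. The first of these steps had a ratio of 0.344 (0.139 to 0.832), the second 0.318 (0.162 to 0.616) and the third 0.451 (0.227 to 0.905). Of 667 windows of 1 Mb on all chromosomes with at least 20 peaks of both lists together, KP22 had at least as many peaks as KP1 in 5. The steps from 17 to 18 Mb and from 18 to 19 Mb are among those 5, and the latter holds the most peaks of the 5, with 41. The remaining 3 lay on chromosomes 7, 9 and 18 with 20, 24 and 23 peaks.

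From 150 Mb to the last peak the segment held 43 KP1 and 28 KP22 peaks, of which 15 and 12 lay in the first step. The ratio of shares was 0.624 (0.379 to 1.04). The last KP1 peak was chr4:155615511-155615660 (150 bases) and the last KP22 peak chr4:155457570-155457728 (159 bases). Neither was shared. Of the 17 steps of the whole segment with at least 20 peaks, the ratio was below 1 in 14 and above 1 in 3, and its interval lay wholly below 1 in 5.

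**Figure D2:**
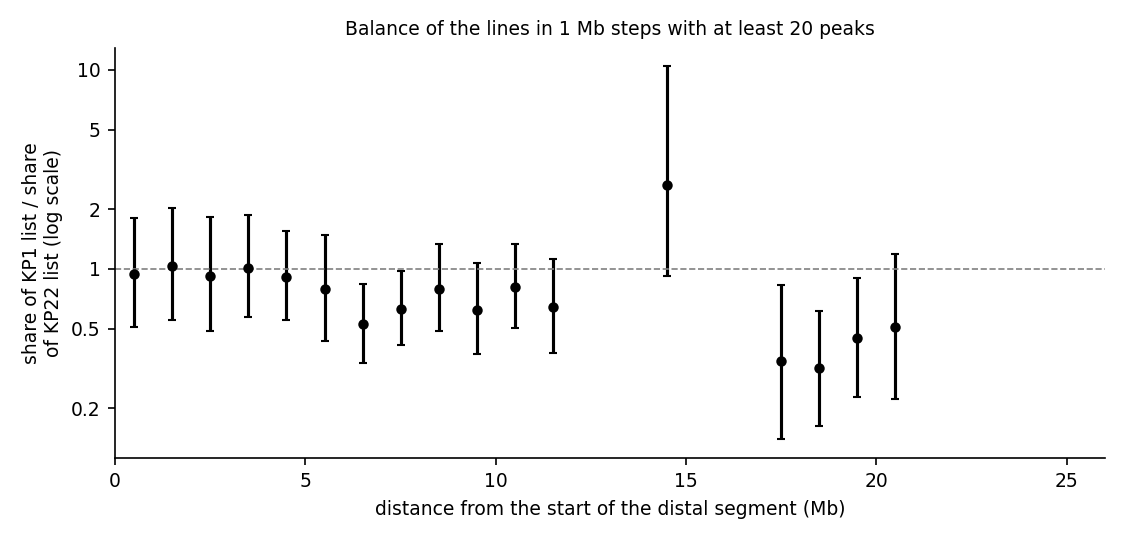
Share of the KP1 list divided by the share of the KP22 list in each 1 Mb step of distal chromosome 4 that holds at least 20 peaks of both lists together (log axis), with exact 95% intervals, against the distance in Mb from the start of the segment. The dashed line marks equal shares. The first 4 steps lie near 1 (0.921 to 1.03), the dense stretch lies between 0.531 and 0.914, and the lowest point is 0.318.

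Overlap between the lines was measured as sharing at least 1 base. On the distal segment 250 KP1 peaks overlapped a KP22 peak, and 250 KP22 peaks overlapped a KP1 peak. That was 37.9% of the KP1 peaks (34.2 to 41.8) and 66.1% of the KP22 peaks (61.1 to 70.9). For KP1 the share was higher than on chromosome 4 before 130 Mb, at 22.6% (20.5 to 24.9), and on other chromosomes, at 26.8% (26.2 to 27.4), and the intervals did not overlap. For KP22 the share on the segment was close to that on the other chromosomes, at 65.8% (64.9 to 66.8), and on chromosome 4 before 130 Mb, at 70.5% (66.2 to 74.5), with overlapping intervals. The share of a list that is shared depends on how many peaks the other line has nearby, so it is not independent of the counts that chose the segment. In this segment 409 peaks were found in KP1 alone and 128 in KP22 alone.

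The dense stretch and the KP22-rich stretch differed in how much of the KP22 list was shared. In the dense stretch, 157 of 219 KP22 peaks overlapped a KP1 peak, or 71.7% (65.2 to 77.6). In the KP22-rich one, 24 of 60 did, or 40.0% (27.6 to 53.5), and 36 were found in KP22 alone. Those 36 lay a median of 25.8 kb from the nearest KP1 peak, and 3 of them lay within 1 kb. In the dense stretch, the 62 unshared KP22 peaks lay a median of 7.17 kb from the nearest KP1 peak, and 8 lay within 1 kb. KP1 peaks were themselves further apart in the KP22-rich stretch, with a median gap of 31.1 kb, against 9.71 kb in the dense stretch. The shares and distances of KP22 peaks are thus not independent of the counts that chose the stretches. KP1 peaks were shared at 40.7% (35.7 to 45.9) in the dense stretch and 47.2% (33.3 to 61.4) in the KP22-rich one, with overlapping intervals. From 17 to 18 Mb, 4 of the 13 KP22 peaks were shared, against 30 of the 38 from 7 to 8 Mb. Other steps of these stretches were closer, with 10 of 18 from 19 to 20 Mb and 13 of 24 from 11 to 12 Mb. In 1 Mb windows of other chromosomes with at least 18 KP22 peaks, 74.4% (69.3 to 79.2) of KP22 peaks were shared, close to the dense stretch. In such windows with at least 35 KP1 peaks, 28.4% (26.1 to 30.9) of KP1 peaks were shared, below the dense stretch. Each set of windows was chosen on the count of 1 line, and the count of the other line was not matched to the dense stretch.

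**Figure D3:**
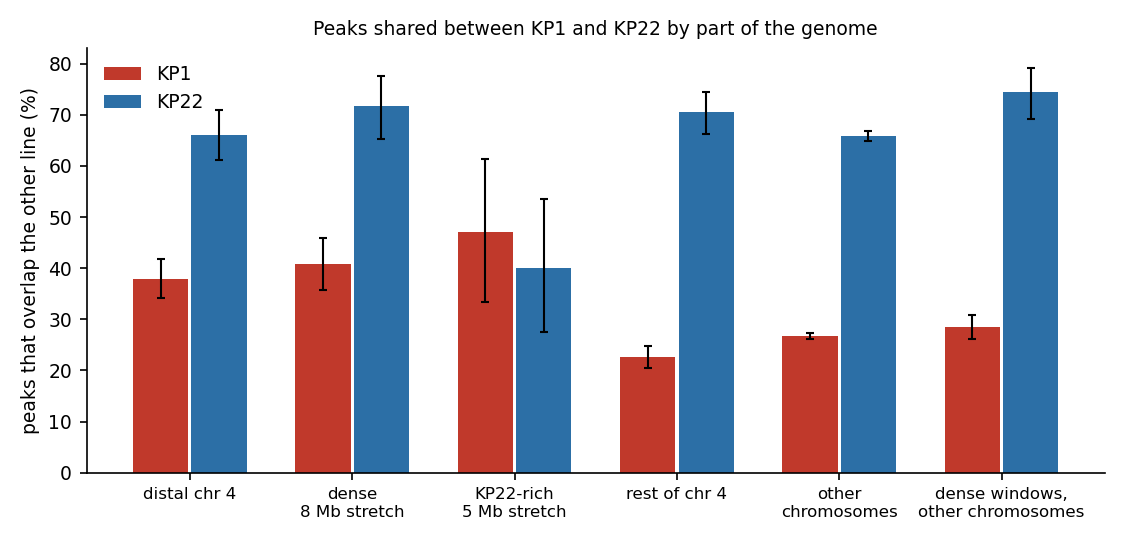
Percentage of peaks that overlap a peak of the other line by at least 1 base, for KP1 (red) and KP22 (blue), with exact 95% intervals. From left to right the groups are all of distal chromosome 4, its dense stretch (4 to 12 Mb), its KP22-rich stretch (15 to 20 Mb), chromosome 4 before 130 Mb, the other chromosomes, and 1 Mb windows of other chromosomes with at least 35 KP1 or at least 18 KP22 peaks. The KP22 bar drops to 40.0% in the KP22-rich stretch.

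Widths were not part of the rule that chose the segment, although that rule was set with earlier results of these data known. Distal peaks had a median width of 252 bases in KP1 (242 to 273), against 230 (229 to 232) on other chromosomes, and 241 bases in KP22 (230 to 255), against 227 (224 to 229). The quartiles were 187 and 370 bases in KP1, and 193 and 344 in KP22. The difference was larger in the upper part of the distribution. Of the KP22 peaks of the segment, 43 had at least 500 bases, or 11.4% (8.36 to 15.0), against 2.97% (2.63 to 3.34) on other chromosomes and 6.65% (4.59 to 9.26) on chromosome 4 before 130 Mb. The distal segment did not stand alone in this: in the adjoining part of chromosome 4, from 122.95 to 130 Mb, 13 of 77 KP22 peaks were that wide, or 16.9% (9.31 to 27.1), and the intervals overlapped. In KP1, 74 had at least 500 bases, or 11.2% (8.92 to 13.9), against 6.38% (6.07 to 6.71) on other chromosomes, 10.8% (9.29 to 12.5) on the rest of chromosome 4 and 7.37% (4.09 to 12.1) in that adjoining part. The share of wide peaks on the segment was thus alike in the lines (11.2% and 11.4%), whereas on the other chromosomes it was higher in KP1.

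Seen from the wide peaks, the segment held 43 of the 350 KP22 peaks of at least 500 bases, which is 12.3% (9.04 to 16.2) against 3.74% of KP22 peaks of any width. For KP1 it held 74 of 1687, or 4.39% (3.46 to 5.48), against 2.65% of peaks of any width. KP1 thus had 1.72 wide peaks for each wide KP22 peak here and 5.28 on the other chromosomes. For peaks of any width the values were 1.74 and 2.46. The balance of wide peaks is thus not independent of the counts that chose the segment. Along chromosome 4 this balance changed by stretch. Between 115 and 122.4 Mb there were 56 wide KP1 peaks and 1 wide KP22 peak, and between 122.95 and 130 Mb 14 and 13. On the distal segment the numbers were 17 and 7 in the first 4 Mb, 49 and 26 in the dense stretch, and 3 and 8 in the KP22-rich stretch. The latter were 5.66% (1.18 to 15.7) of 53 KP1 peaks and 13.3% (5.94 to 24.6) of 60 KP22 peaks. These intervals overlapped, and each included the share of its line on the whole segment (11.2% and 11.4%).

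Crowded windows of other chromosomes were set beside the dense stretch. In 34 windows of 1 Mb on other chromosomes that held at least 35 KP1 peaks each, which is the lowest step count of the dense stretch, 10.7% (9.18 to 12.5) of 1424 KP1 peaks had at least 500 bases, close to the 13.0% (9.75 to 16.8) of the dense stretch. In KP22 the values were further apart. In 15 windows of other chromosomes with at least 18 KP22 peaks each, 3.47% (1.74 to 6.12) of 317 peaks had at least 500 bases, against 11.9% (7.90 to 16.9) in the dense stretch. These windows were chosen after the widths were seen, and the part of crowding in the widths was not tested. Within the dense stretch, wide KP1 peaks were spread unevenly over the steps. They were 1 of 54 KP1 peaks from 4 to 5 Mb, 11 of 40 from 9 to 10 Mb and 12 of 54 from 10 to 11 Mb.

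**Figure D4:**
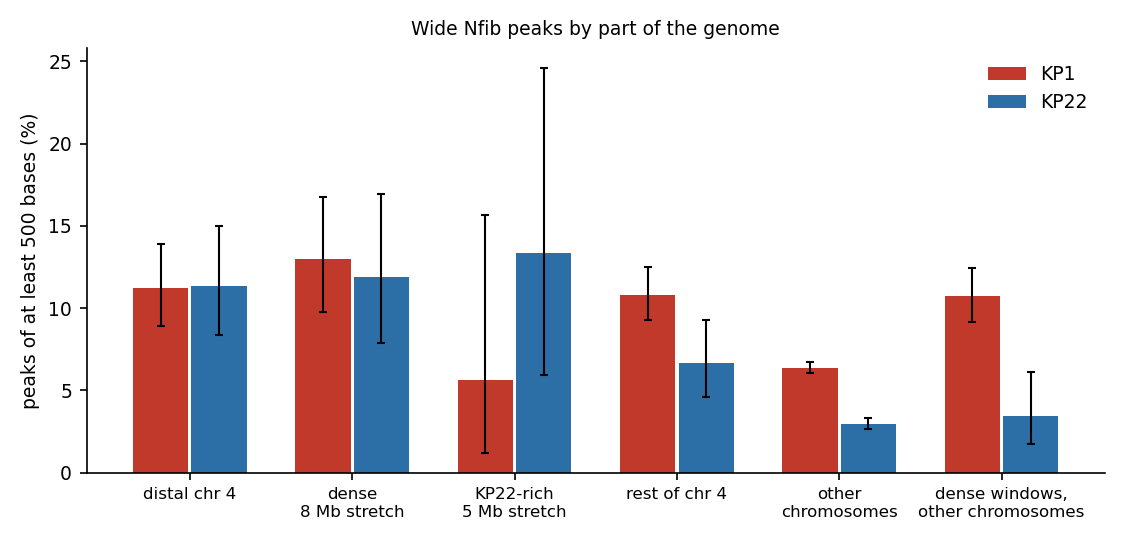
Percentage of peaks with at least 500 bases for KP1 (red) and KP22 (blue), with exact 95% intervals, in the same 6 groups of peaks as in the plot of shared peaks. The KP22 bar stands at 11.4% on distal chromosome 4, and at 2.97% and 3.47% in all and in crowded windows of the other chromosomes.

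Shared peaks were wider than unshared ones, on the segment as elsewhere, and wide KP22 peaks were more frequent than on other chromosomes in both classes. A wider peak meets the rule of at least 1 shared base more easily. The difference between shared and unshared peaks thus follows in part from the definition. Of the 250 shared KP22 peaks of the segment, 36 had at least 500 bases, or 14.4% (10.3 to 19.4), against 4.35% (3.85 to 4.89) of those on other chromosomes. Of the 128 unshared ones, 7 did, or 5.47% (2.23 to 10.9), against 0.316% (0.152 to 0.580) on other chromosomes, where 10 of 3164 were that wide. Median widths of the segment were 264 bases in shared and 214 in unshared KP22 peaks, and 293.5 and 238 in KP1. The 7 wide KP22 peaks without a KP1 partner had between 510 and 635 bases. The widest was chr4:148416340-148416974, 38.7 kb from the nearest KP1 peak, and the most isolated was chr4:150264070-150264644 (575 bases), at 164.9 kb. Another 2 lay in the KP22-rich stretch, at chr4:148319656-148320165 and chr4:149154563-149155101, and 3 in the dense stretch. These 7 were listed after their widths were seen.

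Where both lines had a peak at the same place, their widths could be compared pair by pair. The segment gave 255 overlapping pairs, since 5 KP1 peaks and 5 KP22 peaks met more than 1 partner. KP1 was the wider in 139 pairs (54.5%, 48.2 to 60.7), KP22 in 114, and 2 were equal, with a median difference, KP1 minus KP22, of 16 bases (-5 to 34). On the other chromosomes KP1 was wider in 51.4% (50.1 to 52.6) of 6146 pairs, with a median difference of 4 bases (1 to 7). In the dense stretch the difference was 20 bases (-16 to 62) over 159 pairs. In the KP22-rich stretch it was -10 bases (-112 to 18) over 25 pairs, and KP22 was the wider in 16 of them. None of these intervals on the segment excluded 0. Between 115 and 122.4 Mb of the same chromosome the difference was 254 bases over 51 pairs. KP1 was the wider in 84.3% of these (71.4 to 93.0), against 56.0% (47.9 to 63.8) in the dense stretch and 9 of 25 pairs in the KP22-rich one. In the adjoining part from 122.95 to 130 Mb the difference was -19 bases (-52 to 10), and KP22 was the wider in 58.8% (44.2 to 72.4) of 51 pairs, with intervals that overlapped those of the KP22-rich stretch. The centres of paired peaks lay a median of 38.5 bases apart on the segment.

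The pairs that differed most in width are described for each direction, and so short a selection does not show whether they lie close together. The widest KP1 peak of the segment, chr4:137422501-137424067, had 1567 bases and contained a KP22 peak of 684 bases, chr4:137423132-137423815, a difference of 883. Next, the KP1 peak chr4:137486592-137487548 (957 bases) met a pair of KP22 peaks of 187 and 238 bases, so these pairs share a KP1 peak. After them came differences of 574 bases each, further along, at the KP1 peaks chr4:138854646-138855402 and chr4:139455192-139455948. In the other direction, the KP22 peak chr4:147836886-147837665 had 780 bases over a KP1 peak of 180 bases, and chr4:134564190-134564863 had 674 bases over a KP1 peak of 150 bases, the narrowest width in the KP1 list. The KP22 peak chr4:131171156-131171890 (735 bases) met 2 KP1 peaks of 217 and 343 bases.

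Among the other widest KP1 peaks, chr4:131039837-131040948 (1112 bases) and chr4:138284842-138285858 (1017 bases) each overlapped 1 KP22 peak, of 687 and 544 bases. The KP1 peak chr4:140576659-140577704 (1046 bases) had no KP22 partner, the nearest KP22 peak being 6.95 kb away. In KP22 the widest peak was chr4:136157237-136158108, with 872 bases over a KP1 peak of 397. It was followed by chr4:140622959-140623814 (856 bases over 577) and chr4:147221691-147222533 (843 bases over 470). Of the 5 widest KP22 peaks, 2 lay in the KP22-rich stretch, against none of the 5 widest KP1 peaks. That stretch held 60 of the 378 KP22 peaks and 53 of the 659 KP1 peaks of the segment, and 5 peaks per list are too few to compare. The widest KP1 peak there was chr4:148241796-148242508 with 713 bases. At that place KP22 had a peak of nearly the same extent, chr4:148241768-148242488, with 721 bases.

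Peaks of KP1 formed runs more often than those of KP22. A run was counted where at least 5 peaks of one list followed each other with gaps of at most 20 kb. KP1 had 32 such runs with 237 peaks, 36.0% of its distal peaks, and 21 of the runs began in the dense stretch. KP22 had 4 runs with 26 peaks, 6.88% of its distal peaks. KP22 has fewer peaks, which by itself leaves fewer runs within a fixed gap. A peak of KP22 lay inside 31 of the 32 KP1 runs. The one without was chr4:144519586-144551832, with 5 KP1 peaks, just past the long gap. A run holds at least 5 KP1 peaks and 37.9% of distal KP1 peaks were shared, so a high count follows in part from the definition. Spans outside the runs were not counted for comparison.

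The KP1 run with the most peaks spanned 78.4 kb, chr4:137417955-137496349, and held 14 KP1 peaks with widths from 150 to 1567 bases. It held 7 KP22 peaks, and 5 of the KP1 peaks were shared. Some 30 kb further on, chr4:137526915-137557248 was the KP22 run with the most peaks, 10 in 30.3 kb. A run of 5 KP22 peaks, chr4:136345882-136385037, spanned more bases, with 39.2 kb. The run of 10 held 7 KP1 peaks, and 8 of its KP22 peaks were shared. Here the KP22 peaks followed the KP1 peaks closely: the KP1 peak chr4:137530711-137531361 (651 bases) began at the same base as a KP22 peak of 219 bases and contained a second KP22 peak of 253 bases. At the end of the run, chr4:137556649-137557215 in KP1 (567 bases) and chr4:137556667-137557248 in KP22 (582 bases) covered nearly the same bases.

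The KP22-rich stretch had 1 run in each line. The KP22 run, chr4:148231856-148247158, held 6 peaks in 15.3 kb. Its first members, chr4:148231856-148232100 (245 bases) and chr4:148232319-148232485 (167 bases), had no KP1 partner, and neither did chr4:148242568-148242876 (309 bases). The remaining 3, of 721, 337 and 221 bases, each overlapped a KP1 peak, of 713, 355 and 314 bases. The KP1 run, chr4:149228560-149261346, held 5 peaks in 32.8 kb, and 2 of them were shared.

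**Figure D5:**
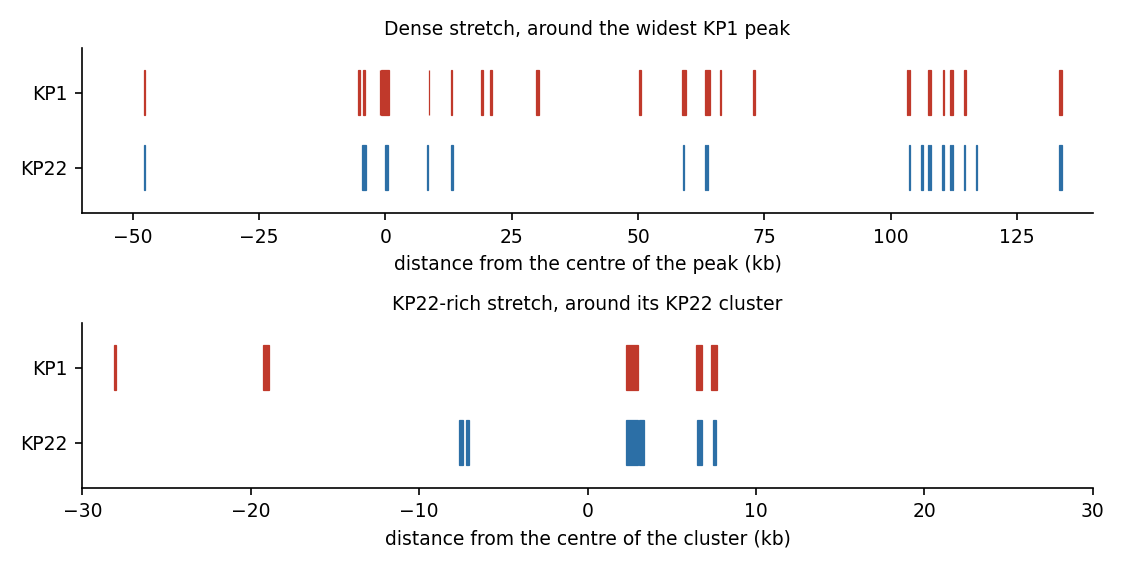
Positions of KP1 peaks (red) and KP22 peaks (blue), drawn to scale along the distance in kb. The upper panel gives distances from the centre of the widest KP1 peak and shows 23 KP1 and 18 KP22 peaks, with the KP1 run of 14 peaks in its middle and the KP22 run of 10 peaks at its right. The lower panel is centred on the KP22 run of the KP22-rich stretch and shows 5 KP1 and 6 KP22 peaks, the leftmost pair of KP22 peaks having no KP1 peak above them. Peaks very close to each other can merge in the drawing.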

How the data were processed

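Nfib pulldown and input libraries of 3 mouse lines were sequenced by the study. The submitters' processing notes name Bowtie2, MACS2, DESeq2, DESeq and build mm9, with no version. Not given in the sources used here are the threshold of the peak caller and whether libraries were pooled. Peak counts and widths depend on both. Per line, the deposited list gives a start and an end per peak in bases, with a blank score. Starts are counted from 0 in the files and from 1 here. The deposited table of 34728 merged regions was not used, because its rows carry no position.

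A peak belonged to the step or stretch in which its start lay; the dense stretch ran from 134 to 142 Mb and the KP22-rich stretch from 145 to 150 Mb. Counts, widths, overlaps (at least 1 base), gaps and runs were computed with scipy 1.17.1, numpy 2.4.6 and pandas 2.3.3 under Python 3.11.15, and drawn with matplotlib 3.10.9. Shares have exact Clopper-Pearson 95% intervals, ratios of shares have exact intervals that treat the peaks of both lists as a binomial split, and medians exact order-statistic intervals. The routines were tested on simulated data. No test was made between the lines. Named peaks are the 5 widest of each list, the 3 widest in each stretch, the 3 overlapping pairs that differ most in each direction, those at the edge of the segment, and the runs with most peaks. Members of these runs and other named peaks were chosen after seeing their values. The segment, its stretches and these rules were chosen with earlier results of these data known. Alternatives concerned the minimum width, joining of neighbours, denominators, overlap, the wide limit, the edge and the steps. No sequence or gene is given, because the tables at hand are of GRCm38.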

Additional observations from a re-analysis of the deposited data

How the results depend on the processing

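Of 84 recomputed values, 60 stayed within their interval or, for counts, within 1.5 times. Every ratio of shares was among them, under each denominator, minimum width and joining tried and with the edge at 130 Mb moved. The edges of the dense and KP22-rich stretches were not moved. A changed denominator rescales each list as a whole, which left little room for change, and gave 0.698 to 0.718 for the segment. A reciprocal overlap of 50%, which asks for more by construction, lowered the shared share of the distal segment to 29.6% of KP1 and 51.6% of KP22 peaks, and of the dense stretch to 30.7% and 53.0%; counting peaks within 500 bases as shared raised the latter's KP1 share to 46.3%. With a wide limit of 400 bases, wide peaks made up 21.1% (KP1) and 18.8% (KP22) of the segment and 23.5% and 20.1% of the dense stretch, against 13.6% and 7.76% on other chromosomes. At 750 bases they made up 1.82% and 1.06% of the segment, 2.91% and 0.913% of the dense stretch and 0% and 3.33% of the KP22-rich stretch, against 1.10% and 0.205% on other chromosomes. With only peaks of at least 200 bases, counts on the whole segment fell from 659 to 447 in KP1 and from 378 to 268 in KP22. In the KP22-rich stretch they fell from 53 to 31 and from 60 to 44. Without that stretch, an alternative chosen after seeing the data, 71.1% of distal KP22 peaks were shared. Steps moved by 0.5 Mb had lowest counts of 1 in KP1 and 1 in KP22. A largest gap of 10 kb gave 18 KP1 runs with 110 peaks; at 50 kb, KP1 runs held 510 peaks, and KP22 had 20 runs with 155 peaks. No paired analysis was possible because each line has 1 peak list, with no values by replicate, and leaving out a replicate was not run on that account. Unknown read depth limits what the counts of either line can show.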
